A study of Mus musculus with 6 samples.

Results

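The genes examined here are the estrogen receptors and a set of genes known to respond to estrogen in other tissues, 10 in all: *Esr1*, *Esr2* and *Gper1*, which encode receptors, *Pgr*, *Greb1*, *Nrip1*, *Xbp1*, *Cxcl12* and *Myb*, which respond to the hormone, and *Esrra*, which encodes an estrogen-related receptor. They were picked by gene symbol, and where a symbol had several entries in the deposited table the entry with the highest base mean was kept. All 10 were found among 20633 entries. *Esr1* and *Greb1* have 2 entries each and the others 1.

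Nuclear RNA was taken from mouse embryonic stem (ES) cells of the genotype Rybp fl/fl;Yaf2-/-. In 3 libraries (UNT) the cells were untreated and in 3 (OHT) they had received 800 nM 4-hydroxytamoxifen for 96 hr. All 6 libraries share the homozygous *Yaf2* deletion, the floxed *Rybp* alleles and a tamoxifen-inducible Cre recombinase, and the *Yaf2* deletion was made in picked colonies of 1 floxed line. RYBP and YAF2 are subunits of variant Polycomb repressive complex 1. In the OHT libraries loss of RYBP, exposure to the drug and Cre activity come together and cannot be told apart. The question the genes raise is whether ES cells hold the machinery for a hormonal response to OHT, which binds estrogen receptors, and only the level of each gene bears on it here.

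ERα, encoded by *Esr1*, and ERβ, encoded by *Esr2*, are nuclear receptors that bind estradiol, dimerise and attach to estrogen response elements in DNA. 4-hydroxytamoxifen occupies the same pocket and acts as an antagonist or a partial agonist, depending on the tissue. GPER1 is an unrelated receptor of the cell membrane. Estrogen response is best known in the breast and uterus, where receptor-positive cells raise genes such as *Pgr* and *Greb1* when the hormone is added.

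Each level below starts from the base mean, the authors' mean over all 6 libraries of read-pair counts scaled for library size (normalized counts). It pools UNT and OHT, so that no value per library or per group, no spread between replicates and no effect of OHT is given. To compare genes, the base mean was divided by the length of the entry in kb from its first to its last base (gene span), and ranked among 19133 entries with a base mean above 0 and a known span. The median of these was 13.7 normalized counts per kb, with quartiles of 1.33 and 51.2. The base means of all entries add up to 23389513 normalized counts. Entries of 1 gene can overlap, so a read pair can enter this sum more than once, and it is not the depth of a library. The depth of each library is unknown. In bulk RNA a low level in every cell and a higher level in a few cells cannot be told apart.

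Of the 10 genes, 7 lay below the median level of all entries and 3 above it. Without a spread between replicates, no neighbours in the order of levels can be said to differ. The median of the 10 was 3.41 normalized counts per kb, at percentile 33.0. The highest level, that of *Xbp1*, was 1142 times that of the lowest, *Gper1*, per kb of span. Per kb of gene span the lowest 25% of entries held *Gper1*, *Esr1* and *Pgr*, and the highest 25% held *Esrra* and *Xbp1*. These places depend on how length is treated. With no division by length the lowest 25% held *Gper1* and *Cxcl12*, at percentiles 5.16 and 23.0. The highest 25% then held only *Nrip1*, at 84.2. Per kb of exon sequence the lowest 25% held *Gper1*, *Cxcl12* and *Pgr*, and the highest 25% held *Nrip1* and *Xbp1*. Of the genes named, only *Gper1* stayed in the same 25% throughout.

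**Figure D1:**
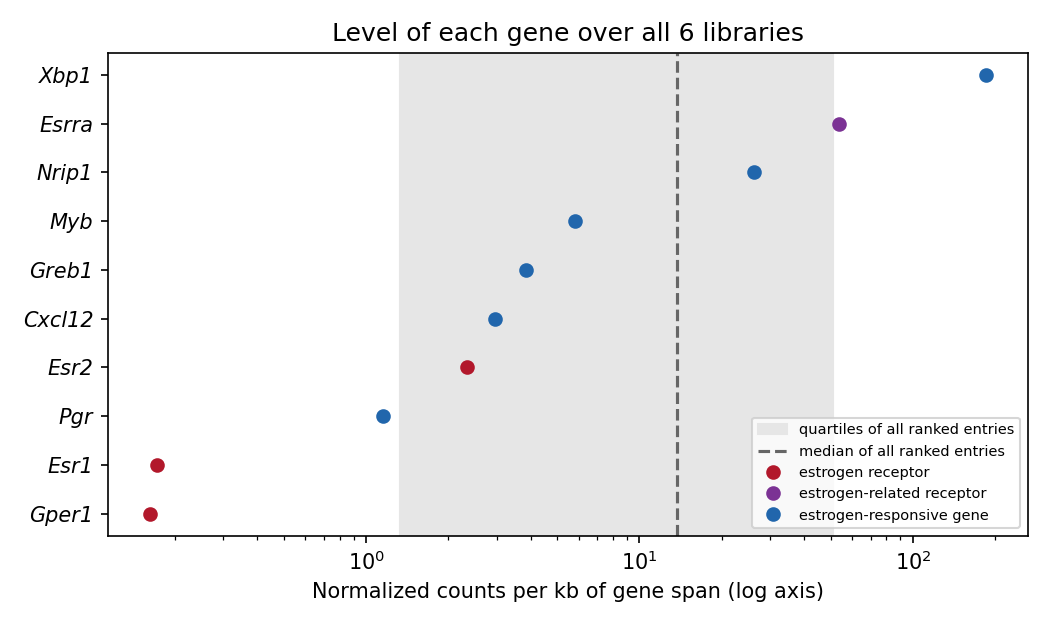
Level of each gene in normalized counts per kb of gene span, on a log axis, as 1 pooled value over all 6 libraries with no error. The band and the dashed line are the quartiles (1.33 and 51.2) and the median (13.7) of all ranked entries. *Gper1* and *Esr1* stand lowest, at 0.162 and 0.172, and *Xbp1* highest, at 185.

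The *Esr1* entry kept spans 257182 bp on chromosome 10 of mm10 (4710155 to 4967336, plus strand) and has 8 exons. It does not cover the whole annotated gene, which the second entry below extends upstream. Whether the gene also runs on past the 3′ end of this entry was not examined. Its base mean was 44.3, which is 0.172 normalized counts per kb and percentile 10.7. The median entry was 79.6 times higher per kb. With no division by length the gap was smaller, a median base mean of 306.7 against 44.3 for *Esr1*. No other annotated gene overlaps this span, and of 2694 stretches of 40 bases, the length of the reads, in its exons, 0 occur in transcripts of another gene on either strand. Related receptors thus share no exon sequence of read length with it; introns were not compared.

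The second *Esr1* entry starts further upstream, at 4611593, and ends at 4893083, short of the last exons of the kept entry. Its base mean was 16.8, or 0.0597 normalized counts per kb. The entry with the longer reach to the 3′ end therefore held more reads although it covers less sequence. Both share 182.929 kb, where a read counted for one is also counted for the other if counting ran over the whole span. On that reading the shared stretch holds at most 16.8 normalized counts, and the last 74.253 kb, from 4893084 to 4967336, hold at least 27.5. This is at least 62.1% of the entry's reads on 28.9% of its length. Per kb it is at least 0.371 normalized counts, 6.20 times the level of the second entry. At this lower limit the stretch would rank at percentile 15.5, and its true rank may be higher.

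That counting ran over the whole span was checked on pairs of entries of 1 gene in which the shorter lies inside the longer, the longer is over 1.1 times its length and the shorter has a base mean over 20. Where the longer entry has less exon sequence than the shorter, its base mean was at least as high in 136 of 141 pairs. Where it has as much or more, the same held in 547 of 558 pairs. Counting over exons alone could give this second result too, so it does not tell the ways of counting apart. Under counting over the whole span the longer entry could not be lower, and the few pairs where it was were not followed up.

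The 3′ stretch of *Esr1* contains 3 of the 8 exons and no other annotated gene. Exon 6, which codes for part of the ligand-binding domain of ERα, is its first exon and has 139 bases. It lies at chr10:4939212-4939350 on the plus strand of GRCm38 (the assembly behind mm10) and is shown because it is the first coding exon of the stretch; in the sense of the gene, all in lower case, the GENCODE transcript reads as follows.
Esr1 exon 6: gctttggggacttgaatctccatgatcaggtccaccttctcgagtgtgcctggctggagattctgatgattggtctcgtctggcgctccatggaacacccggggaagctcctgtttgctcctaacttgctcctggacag
Tamoxifen-inducible forms of Cre are fusions with the ligand-binding domain of an estrogen receptor. Which form these cells carry is not given in the sources used here, and reads from such a fusion cannot be told apart from reads of *Esr1* in a table without positions.

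**Figure D2:**
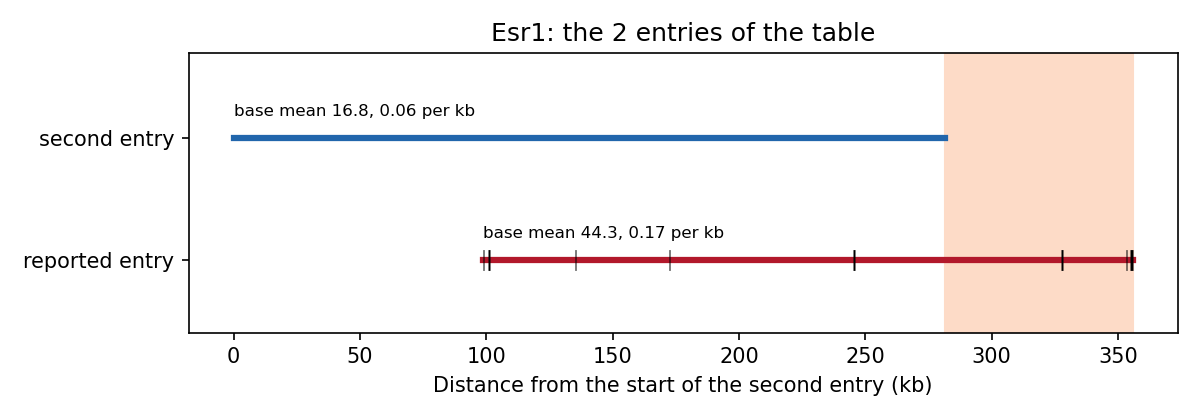
The pair of *Esr1* entries drawn by distance in kb from the start of the second entry, with exons of the reported entry as black bars (widened to be visible). The shaded last 74.253 kb belong to the reported entry alone, whose base mean is 44.3 against 16.8 for the second entry.

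*Esr2* was the highest of the estrogen receptors. It spans 56821 bp on chromosome 12 (76120439 to 76177259, minus strand) and has 9 exons. The base mean of *Esr2* was 132.7, or 2.33 normalized counts per kb, at percentile 29.6. This is 13.5 times the level of *Esr1* per kb, and the median entry was still 5.87 times higher. With no division by length the gap was smaller, a base mean of 132.7 against 44.3 for *Esr1*. In the exons of *Esr2* 29 of 3249 stretches of 40 bases also occur in transcripts of other genes on the same strand. None of these is among the nuclear receptors searched. An annotated pseudogene lies inside the span on the same strand.

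*Gper1* was close to undetected. It spans 4650 bp on chromosome 5 (139423151 to 139427800, plus strand), and its base mean was 0.752, under 1 normalized count in an average library and 4.51 summed over the 6. Per kb of span this is 0.162, at percentile 10.4, about that of *Esr1*, whose span is far longer. The whole of *Gper1* lies within an entry of *3110082I17Rik* on the opposite strand with a base mean of 1906, or 18.9 normalized counts per kb. A library kit that marks strand was used, and whether the counting used strand is not given in the sources used here. At that density the 4650 bp would hold 87.9 normalized counts of the opposite strand, and 0.752 were assigned to *Gper1*. The kept entries of the estrogen receptors together took up 7.60 of every 1000000 normalized counts in the sum over all entries.

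*Esrra* encodes ERRα, an orphan receptor close in sequence to ERα that drives genes of mitochondrial metabolism and does not bind estradiol. It was far above the estrogen receptors. A base mean of 580.0 over 10832 bp on chromosome 19 (6910977 to 6921808, minus strand) is 53.5 normalized counts per kb and percentile 75.9. This is 311 times *Esr1* and 22.9 times *Esr2* per kb of gene span. With no division by length the gap was much smaller, a base mean of 580.0 against 44.3 for *Esr1* and 132.7 for *Esr2*. The paralogue of *Esrra*, *Esrrb*, a gene of the naive pluripotency network, reached 66.1 normalized counts per kb of gene span, 1.23 times *Esrra*. With no division by length *Esrrb* was far higher, with a base mean of 10603 against 580.0 for *Esrra*. *Esrra* overlaps *Trmt112* on the opposite strand by 52 bp, and 34 of its 2203 stretches of 40 bases occur in that gene's transcripts on the opposite strand.

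*Pgr*, the progesterone receptor gene and a widely used readout of ERα activity, was the lowest of the responsive genes per kb of gene span; per kb of exon sequence and with no division by length *Cxcl12* was lower. Over its 68779 bp on chromosome 9 (8899833 to 8968611, plus strand) it had a base mean of 79.1, or 1.15 normalized counts per kb, at percentile 23.8. *Esr2* was 2.03 times higher per kb. No annotated gene overlaps *Pgr* and none of its stretches of 40 bases is shared.

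*Greb1* encodes a cofactor of ERα that the receptor itself induces in breast cancer cells. The entry kept spans 130070 bp on chromosome 12 (16670615 to 16800684, minus strand) and has 35 exons. It had a base mean of 499.8, or 3.84 normalized counts per kb, at percentile 34.2, which is 3.34 times *Pgr*. The second *Greb1* entry lies inside it and starts downstream, at 16757195. Its base mean was 362.1, or 4.25 normalized counts per kb. If counting ran over the whole span, the remaining 137.7 normalized counts fall on the 44.953 kb that only the longer entry covers. That is 3.06 per kb, and nearly all of this stretch is upstream of the second start. On that reading the stretch outside the second entry was read at a lower density than the second entry. An antisense transcript is annotated inside *Greb1*, and 614 of its 8005 stretches of 40 bases occur in other genes' transcripts on the opposite strand, 3 of them in *Nr3c1*, and 17 on the same strand.

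*Cxcl12*, which encodes the ligand of the chemokine receptor CXCR4, had a base mean of 19.4 on a span of 6535 bp on chromosome 6 (117168535 to 117175069). Per kb this is 2.97 normalized counts, at percentile 31.9. *Myb*, a transcription factor gene of blood progenitors, had a base mean of 208.2 on 35971 bp of chromosome 10 (21124935 to 21160905, minus strand), or 5.79 normalized counts per kb, at percentile 38.5. An antisense transcript is annotated inside *Myb*, and 340 of its 3654 stretches of 40 bases are shared with it on the opposite strand. Both genes lay below the median of all entries.

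*Nrip1* and *Xbp1* were the responsive genes above the median. *Nrip1* encodes RIP140, a corepressor that binds ligand-bound nuclear receptors. It had a base mean of 2161 on 82188 bp of chromosome 16 (76290862 to 76373049, minus strand), the highest base mean of the 10 genes. Per kb this is 26.3 normalized counts, at percentile 61.3, 1.92 times the median entry and 11.3 times *Esr2*. *Xbp1* encodes a transcription factor of the unfolded protein response. It had a base mean of 966.7 on 5235 bp of chromosome 11 (5520659 to 5525893, plus strand), which is 185 normalized counts per kb, at percentile 94.1 and 13.5 times the median entry.

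The order of the genes by level depends in part on how length is treated. Exons make up 1.06% of the *Esr1* span and 54.6% of the *Gper1* span. Per kb of exon sequence *Esr1* moved up to percentile 27.6 and *Gper1* down to percentile 3.50. With no division by length *Greb1* came to percentile 57.9, above the median, and the number of genes above the median rose from 3 to 4. *Esr1*, *Esr2*, *Gper1*, *Pgr*, *Cxcl12* and *Myb* lay below the median and *Nrip1*, *Xbp1* and *Esrra* above it in each of these 3 treatments.

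**Figure D3:**
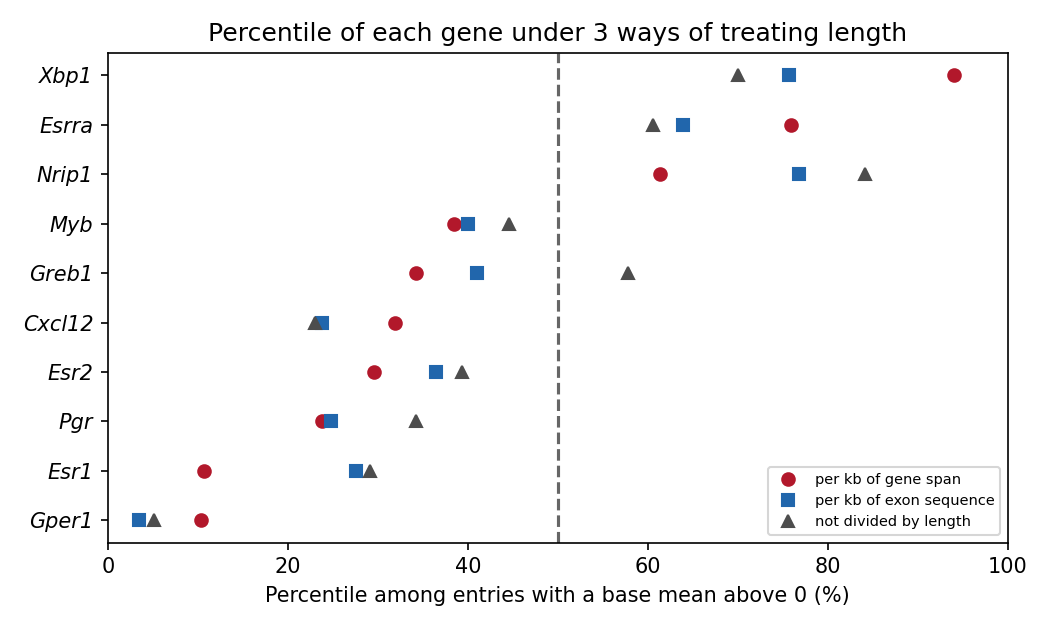
Percentile of each gene among entries with a base mean above 0, from levels per kb of gene span (circles), per kb of exon sequence (squares) and with no division by length (triangles). *Greb1* alone changes its side of the dashed median line, from percentile 34.2 to 57.9.

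The sequences around the start sites were then searched for the letters that receptors recognise. RefSeq windows of GRCm38.p6 reach from 250 bases before to 50 after each start, and the 10 genes have 13 of the 32851 windows. The full estrogen response element, the arm GGTCA followed after 3 bases by its reverse complement TGACC, was in 0 of the 13 and in 0.0700% of all windows. The element of estrogen-related receptors, TCAAGGTCA, was in 0 of the 13 and in 0.423% of all, searched on both strands. Both elements are so rare over all windows that 0 in 13 tells nothing about these genes. The single arm GGTCA, searched on both strands and contained in both longer elements, was in 5 of the 13 windows (38.5%), against 40.5% of all windows. The share of the 13 is near that of all windows, and a match of 5 letters is no evidence of binding. No occupancy data of a receptor were analysed here. Elements with mismatches were not searched. The matches are printed to show the sequence around each arm, 5′ to 3′ on the strand of the gene with the arm in capitals.
Esr1, chr10:4611994-4612018, plus strand, base 16 from the start at 4611989: ctaatttcatGGTCAtaacagcctc
Esr2, chr12:76177483-76177507, minus strand, 238 bases before the start at 76177259: ctggggatctGGTCAgaaattccca
Esr2, chr12:76177320-76177344, minus strand, 75 bases before the same start: cccggtttgtGGTCAcgtgggcttc
Greb1, chr12:16800960-16800984, minus strand, 88 bases before the start at 16800886: aagcaacaaaTGACCtctgtccccg
Greb1, chr12:16757419-16757443, minus strand, 194 bases before the start at 16757239: ctaccaggcgGGTCActggggattg
Greb1, chr12:16757310-16757334, minus strand, 85 bases before the same start: tttcaggaagGGTCActtatggtgg
Nrip1, chr16:76373890-76373914, minus strand, 77 bases before the start at 76373827: agtcctgttgGGTCAgatccttcct
Each distance is that of the first base of the arm from the RefSeq start of its window, which for *Esr1*, *Greb1* and *Nrip1* is not the first base of the table's entries given above. In the first *Greb1* sequence the arm reads on the opposite strand. *Greb1* thus has matches before both of these starts, and *Gper1*, *Pgr*, *Xbp1*, *Cxcl12*, *Myb* and *Esrra* have none in their windows.

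Set beside other nuclear receptors, *Esr1* was lower than each of those listed. Of 11 other receptor genes, 8 lay above the median of all entries, and the median level of the 11 was 32.6 normalized counts per kb. These receptors were chosen by name and are not a random sample of nuclear receptors. The highest per kb of gene span were *Nr0b1*, which encodes DAX1, at 214 and *Rxrb*, a partner of many nuclear receptors, at 84.9. This order depends on the division by length. By base mean *Esrrb* was highest of the 11 at 10603, against 896.4 for *Nr0b1* and 558.9 for *Rxrb*. The lowest were *Esrrg* at 0.242 and the mineralocorticoid receptor gene *Nr3c2* at 2.74, both above *Esr1* at 0.172. *Esr2* at 2.33 stood between them per kb of gene span. By base mean *Esr2*, at 132.7, was below both *Esrrg*, at 146.3, and *Nr3c2*, at 938.7.

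RNA of genes that serve nuclear receptors was mostly above the median. Of 18 cofactor and chaperone genes, 15 lay above the median of all entries and 10 in the highest 25%. The chaperone genes *Hsp90ab1* and *Hsp90aa1*, whose products hold steroid receptors ready for ligand, were highest at 6929 and 2379 normalized counts per kb. The lowest were *Foxa1* at 1.37 and *Gata3* at 2.22, which encode the pioneer and lineage factors that act with ERα in breast cells. *Nrip1* at 26.3 was lower than the median of this list, 96.1.

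Genes that estrogen raises in other tissues were set beside the 6 responsive genes, with no test between the lists. Of 16 targets known from breast cells, 9 lay above the median of all entries, led by *Ctsd* (cathepsin D) at 497 and *Ccnd1* (cyclin D1) at 113 normalized counts per kb, with *Tff1* at 0.145 and *Areg* at 1.14 lowest. Of 10 targets known from the uterus, 0 lay above the median and 5 were in the lowest 25%. *Muc1* at 12.6 and *Lif* at 11.6 were highest, and *Lcn2* at 0.230 and *Ltf* (lactoferrin) at 0.296 lowest. The 6 responsive genes among the 10, *Pgr*, *Greb1*, *Nrip1*, *Xbp1*, *Cxcl12* and *Myb*, ran from 1.15 to 185, a range that crosses both lists.

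**Figure D4:**
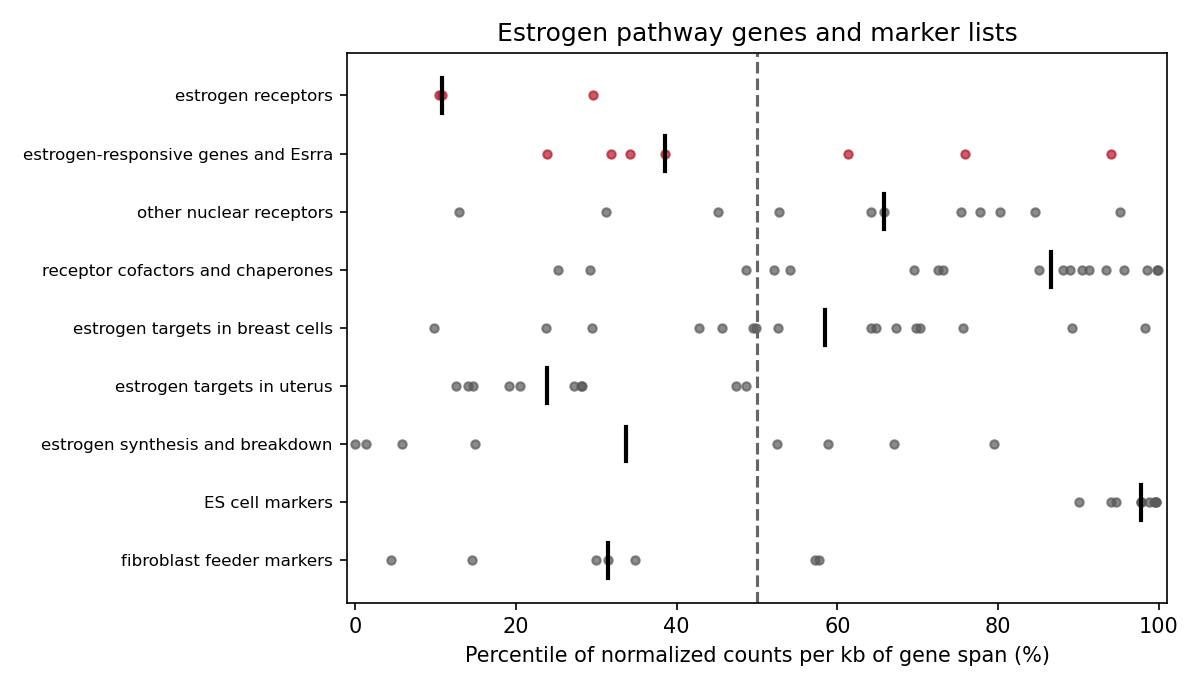
Percentile of the level per kb of gene span for each gene of the lists, with a black bar at the list's median and a dashed line at percentile 50. The estrogen receptors lie at 10.4, 10.7 and 29.6, the cofactors and chaperones have a median of 86.6 and the ES cell markers one of 97.9.

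The labelled cell type was checked against its markers. All 9 ES cell markers found in the table lay in the highest 25% of entries, with *Tdgf1* at 2181 and *Sox2* at 1951 highest and *Dppa4* at 122 and *Lin28a* at 185 normalized counts per kb lowest. Of 7 markers of fibroblasts, which serve as feeder cells and express estrogen-responsive *Cxcl12*, 2 lay above the median, *Col1a1* at 22.0 and *Thy1* at 21.2, while *Postn* and *Lum* were at 0.0450 and 0.320. The summed level of the fibroblast markers was 52.9 normalized counts per kb, against 7271 for the ES cell markers. Whether other cells contribute to *Cxcl12* was not tested. Of 4 trophoblast markers 3 lay below the median, and *Tfap2c* at 125, also counted among the cofactor and chaperone genes, above it. All 4 markers of primitive endoderm, both neural ones and the 1 blood marker found lay below it, from 11.4 for *Sox1* down to 0.0161 for *Ptprc*. Of the genes altered in the model, *Rybp* had a base mean of 13983 over both groups, which cannot check the labels, and *Yaf2* one of 3.24.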

How the data were processed

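Nuclear RNA was sequenced from 3 UNT and 3 OHT libraries as paired reads of 40 bases. The authors removed rRNA reads with bowtie2, aligned the rest to mm10 with STAR and then bowtie2, and counted read pairs on a filtered RefSeq gene set; versions are not given in the sources used here. The deposited base mean is a signal, the authors' mean of DESeq2-normalized counts over all libraries. The remaining columns hold the authors' own comparison of OHT with UNT (fold change, standard error, statistic and p-values) and were not used. The table gives no counts per library, so the planned test between groups and its alternatives were not run.

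Entries were named through RefSeq (GRCm38.p6) and GENCODE vM21, with a symbol for 20560 of 20633 and a GENCODE span for 20261; for 299 more the RefSeq gene span was used. Of the entries, 1435 had a base mean of 0. The genes named are the 10 genes, the 2 highest and 2 lowest of each list, *Rybp* and *Yaf2*; others were named after their values were seen. The genes and lists were chosen with earlier results of these data known. *Tfap2c*, *Pdgfra* and *Rara* each stand in several lists, so the counts of those lists are not independent. *Sts*, *Dppa5a* and *Hbb-b1* were not found. Of the listed receptor genes, 1 is not reported here. Stretches of 40 bases were searched in 141767 transcripts. Protein sequences were not used here. On simulated data only the step that turns levels into percentiles was tested, not the spans, the choice of entries or the counting. Python 3.11.15, numpy 2.4.6, pandas 2.3.3, scipy 1.17.1 and matplotlib 3.10.9 were used.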

Additional observations from a re-analysis of the deposited data

How the results depend on the processing

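The number of genes above the median level was 3, and it was 3 or 4 under each of the 7 alternatives, 6 of them planned. It was 4 with no division by length. It was 3 per kb of exon sequence, with a base mean of at least 10, with entries at 0 included, with 1 entry per gene, with the mean over a gene's entries, and with the RefSeq gene span, which was chosen after seeing the data. The percentiles moved more. Over all settings *Esr1* ran from percentile 1.35 to 29.1, *Esr2* from 14.7 to 39.3, *Gper1*, which a minimum of 10 removes, from 3.50 to 16.6 and *Xbp1* from 70.1 to 94.5. No paired analysis was possible because libraries appear only as a pooled mean. Hence the edgeR and DESeq2 fits, the filter on counts and leaving out each replicate were not run, and the alignment of receptor proteins was not run because no protein sequence was used here. A base mean under 1, as for *Gper1*, rests on few reads in all libraries together.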

Other observations

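Genes that make or break down estrogen were unevenly expressed. Of 8 such genes in the table, 4 lay above the median of all entries and 4 in the lowest 25%. *Cyp19a1*, which encodes aromatase, the enzyme that makes estrogens from androgens, had a base mean of 0.392, and *Sult1e1*, which encodes the sulfotransferase that inactivates estradiol, is listed at 0. The highest were *Hsd17b12* at 63.8 and *Hsd17b4* at 34.6 normalized counts per kb of gene span, enzymes that also act in fatty acid metabolism.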
